A study of Mus musculus with 60 samples.

Results

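Drd1, Tac1, Pdyn, Chrm4 and Isl1 are marker genes of the direct-pathway projection neurons of the striatum. They were chosen by symbol and not by their values, and are 5 of the 47574 gene entries used in each of 60 RNA-Seq libraries. Brain RNA came from C57BL/6N mice aged 3 months, and each of 10 labelled groups held 3 males and 3 females. In cortex and in striatum, the groups were +/+, Δ12/+ and Δ12/Δ12 of the Htt Δ12 line, and +/+ and KO/+ of the Htt KO line. The Δ12 allele is a germline deletion of the end of exon 12 of Htt, the gene of huntingtin, made by CRISPR-Cas9 and a repair template. The KO allele came from a founder in which the same edit was imprecise and took the splice donor with it. Levels are FPKM (fragments counted per unit of transcript length and of mapped fragments) after each library was scaled by the median ratio of its genes, and fold changes are on the log2(scaled FPKM + 0.5) scale, which understates changes of low genes.

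Projection neurons make up nearly all neurons of the striatum and fall into a pair of classes. Direct-pathway neurons project to the substantia nigra and the internal pallidum, and dopamine excites them through the D1 receptor. Indirect-pathway neurons project to the external pallidum and carry the D2 receptor. Drd1 encodes the D1 receptor, which raises cyclic AMP through the G protein subunit encoded by Gnal. Chrm4 encodes the M4 muscarinic acetylcholine receptor, which lowers cyclic AMP. Tac1 encodes the precursor of substance P, and Pdyn that of the dynorphins. Isl1 is a LIM-homeodomain transcription factor needed for direct-pathway neurons to form, which cholinergic interneurons carry as well.

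The labels of tissue, sex and genotype were contradicted in part by the transcripts. By Slc17a7, the vesicular glutamate transporter of cortical excitatory neurons, 30 libraries were cortex-like (121 FPKM or more as deposited) and 30 striatum-like (64.8 FPKM or less). The class went with the labelled tissue in 30 of 60 libraries. Whatever the labelled tissue, the striatum-like class held the entire KO line and the Δ12/Δ12 libraries labelled female, and the cortex-like class held the rest of the Δ12 line. Xist and Ddx3y, transcribed from the X and Y chromosomes, matched the sex on the label in 30 libraries of the 60. Scaled Htt was below all 6 +/+ libraries in 3 of the 6 libraries labelled KO/+ in striatum and in 3 of 6 in cortex. One library, striatum KO-line KO/+ female 3, has the Δ12 line in its title and the KO line in its genotype label. Libraries are named by their labels throughout. Depth was estimated at about 12800000 to 27500000 fragments per library, with a median of 17000000.

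The genes lie on 3 chromosomes of GRCm38. Drd1 (ENSMUSG00000021478) is at chr13:54051186-54055658 on the reverse strand and Isl1 (ENSMUSG00000042258) at chr13:116298281-116309689 on the same strand. Pdyn (ENSMUSG00000027400) is at chr2:129686565-129699844 on the reverse strand, and Chrm4 (ENSMUSG00000040495) at chr2:91927249-91928688 on the forward strand. Tac1 (ENSMUSG00000061762) is at chr6:7554879-7565834 on the forward strand. No gene of GENCODE M21 overlaps any of them. The Chrm4 model is 1 exon of 1440 bases with a coding sequence of 1437 bases, so it holds no UTR, and reads from the UTRs of Chrm4 were not counted to it.

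D1 receptors act on genes through cyclic AMP and the factor CREB, whose core motif is TGACG or, on the other strand, CGTCA. The motif is shown because cyclic AMP is the second messenger that Drd1 raises and Chrm4 lowers. In the RefSeq promoter windows of GRCm38.p6 (the 250 bases before the start site), all 5 genes were found, with 7 windows. Windows of Tac1 and Isl1 held the motif, 2 of 7, and 17.8% of all 32851 windows held it. The full palindrome TGACGTCA, which contains both forms, was in 1.55% of all windows. Each sequence below is written 5′ to 3′ on the strand of the gene, with the motif in capitals. The first of Tac1 is at chr6:7554854-7554878 and the second, inside the gene as the files annotate it, is at chr6:7555008-7555032. Those of Isl1 are at chr13:116309733-116309757 and chr13:116309715-116309739.
Tac1 first site: cctaaaattgCGTCAtttcgaacac
Tac1 second site: tctacaggctCGTCAcgcctgagat
Isl1 first site: ggcgctcgccTGACGtccccgcgcg
Isl1 second site: ccgcgcgctgCGTCAgaccaatggc
A match of these letters is a description and shows no binding.

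All 5 genes were higher in every striatum-like library than in any cortex-like library, as the plot of the 60 libraries shows. The classes come from measured values, so this is a description with no test. Of 16076 entries, 19.3% were likewise above in all striatum-like libraries and 16.9% in all cortex-like ones. Over these entries, the median of the differences between class medians was a log2 of 0.03 after scaling and -0.18 on FPKM as deposited. On FPKM as deposited, 3 of the 5 genes did not overlap. The class threshold also matters. With Slc17a7 above 50 FPKM as the threshold, none of the 5 genes was free of overlap, and with 150 FPKM, 3 were.

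**Figure D1:**
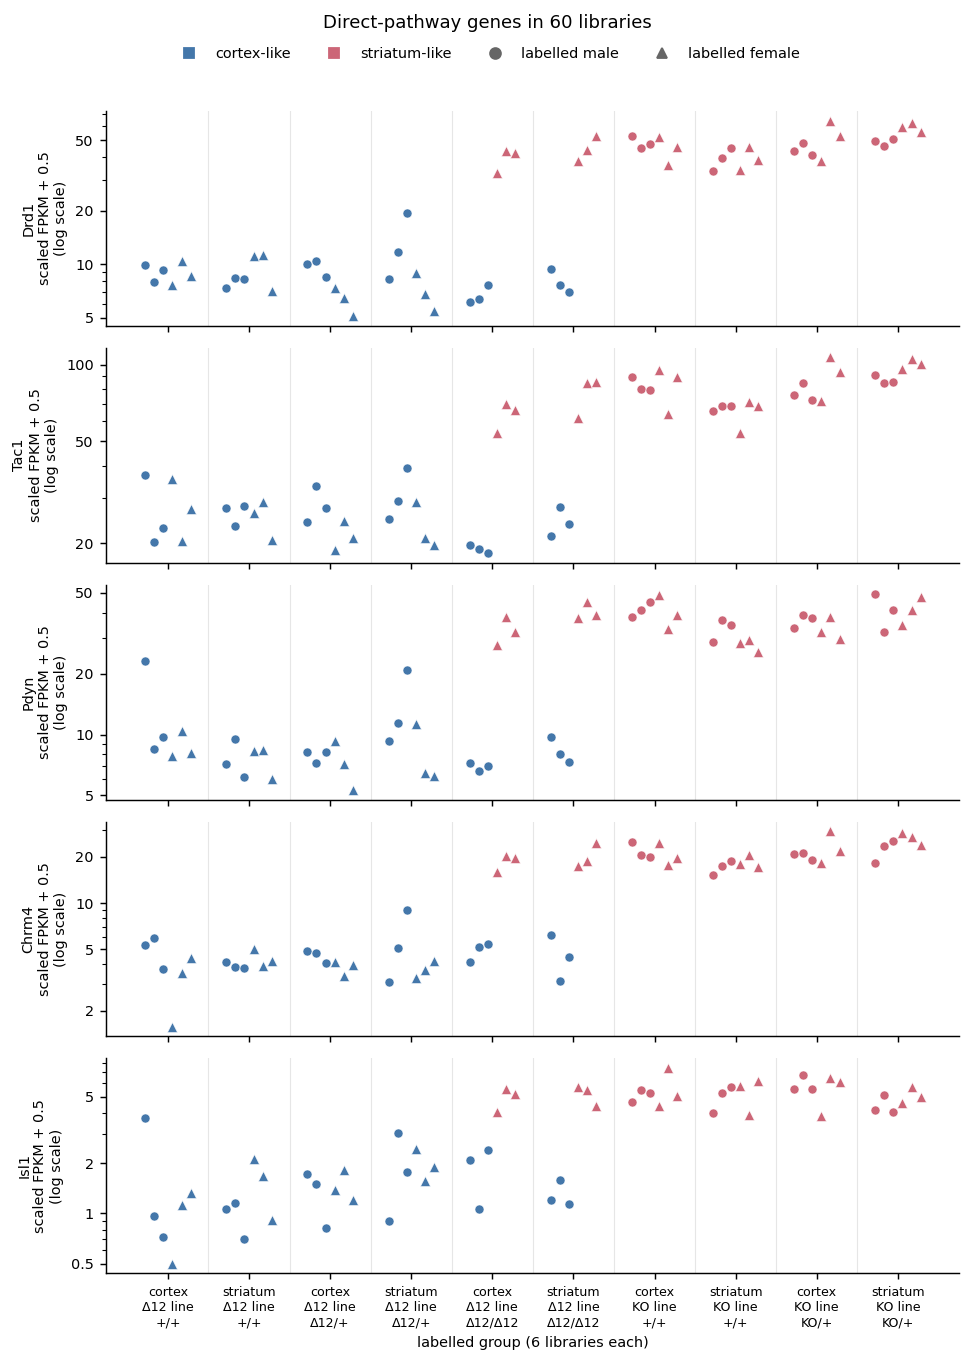
Scaled FPKM + 0.5 (log scale) of each gene in 60 libraries, with 10 labelled groups of 6 along the horizontal axis, colour for the class by Slc17a7 and circles or triangles for labelled males or females. In each panel all 30 striatum-like libraries lie above all 30 cortex-like ones, and the groups labelled Δ12/Δ12 hold 3 libraries of each class.

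The D1 receptor gene Drd1 had a lowest, median and highest level of 32.2, 45.0 and 63.9 scaled FPKM in striatum-like libraries and of 4.61, 7.76 and 18.9 in cortex-like ones, a ratio of medians of 5.80. The M4 receptor gene Chrm4 was at 14.7, 19.7 and 28.8 scaled FPKM and at 1.07, 3.65 and 8.58, a ratio of 5.38. Both receptors were therefore measured at several FPKM in most cortex-like libraries too, and no cortex-like library reached the lowest striatum-like one.

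Of the neuropeptide genes, Tac1 was at 53.4, 79.4 and 106 scaled FPKM in striatum-like libraries and at 17.8, 23.9 and 38.8 in cortex-like ones, a ratio of 3.33, the smallest of the 5 genes. Pdyn was at 25.1, 37.1 and 48.7 scaled FPKM and at 4.83, 7.61 and 22.6, a ratio of 4.88. Its highest cortex-like library, cortex Δ12-line +/+ male 1, was close to the lowest striatum-like one. Ratios of medians above 3 were found for 14.1% of all entries.

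The transcription factor gene Isl1 was the lowest of the 5 in striatum-like libraries, at 3.31, 4.78 and 6.91 scaled FPKM. In cortex-like libraries it was listed at 0 in the lowest, with a median of 0.850 and a highest of 3.24, a ratio of medians of 5.62. The deposited confidence interval was also widest for Isl1, with a median half-width of 27.2% of the value in striatum-like libraries and 74.7% in cortex-like ones, where the lower bound was 0 in 6 libraries. For Drd1 the median half-widths were 3.80% and 9.20%. The level of Isl1 in a single cortex-like library is thus poorly determined at this depth. Its highest cortex-like library (3.24) and lowest striatum-like library (3.31) differed by less than these intervals, whose smallest half-widths were 36.3% and 19.3%.

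Within the striatum-like libraries the order of levels per length was Tac1, Drd1, Pdyn, Chrm4 and Isl1. Tac1 was above Drd1 in 30 of 30 libraries, Drd1 above Pdyn in 29 of 30, Pdyn above Chrm4 in 30 of 30 and Chrm4 above Isl1 in 30 of 30. Across libraries the ranges of Tac1 and Drd1, of Drd1 and Pdyn and of Pdyn and Chrm4 overlapped, and those of Chrm4 and Isl1 did not. In cortex-like libraries Drd1 was above Pdyn in 13 of 30, so that these genes had no fixed order there.

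The 5 genes had nearly the same total spread over the 30 striatum-like libraries, with coefficients of variation of 18.0% for Drd1, 18.0% for Tac1, 17.6% for Pdyn, 18.0% for Chrm4 and 19.0% for Isl1. These include counting error, for which the deposited interval had a median half-width of 27.2% for Isl1 and 3.80% for Drd1. The part of counting error in each spread, and in the ratios with Isl1, was not tested. The ratios between genes fell into a narrow and a wide kind. Tac1 to Drd1 had a median ratio of 1.75 and a coefficient of variation of 6.88%, and Drd1 to Chrm4 a median of 2.22 and a coefficient of variation of 7.71%. Drd1 to Drd2, the receptor genes of the direct and indirect pathways, had a median ratio of 0.928 (range 0.770 to 1.06) and a coefficient of variation of 5.70%, narrower than any of these. Ratios with Pdyn or Isl1 were wider, at 17.5% for Drd1 to Pdyn and 26.1% for Chrm4 to Isl1. In cortex-like libraries Drd1 to Drd2 had a median ratio of 9.88, and Drd2, at a median of 0.809 scaled FPKM, was at about the level of Isl1.

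Other genes of the pathway differed between the classes in the same direction. Of 6 further direct-pathway genes, 4 were above in all striatum-like libraries, among them Slc35d3, an orphan nucleotide sugar transporter found in direct-pathway neurons (median 10.0 against 0.666 scaled FPKM), and Foxp2, a transcription factor of these neurons (13.5 against 1.76). Ebf1 and Eya1 were the exceptions. Of 12 genes of D1 receptor signalling, 10 were above in all striatum-like libraries, as Adcy5, the main striatal adenylyl cyclase, was (171 against 5.48). Gnb1 overlapped, and Arpp19, a phosphatase inhibitor, was lower in every striatum-like library (94.2 against 170). Of 12 receptors, ligands and enzymes around the 5 genes, 7 were above in all striatum-like libraries. These held Tacr1, the receptor of substance P (4.42 against 0.411), Oprk1, the receptor of dynorphin (6.65 against 2.55), and Chat, which makes the ligand of M4 (4.50 against 0.389). The peptide-processing enzymes were split, since Cpe was above in all striatum-like libraries, Pcsk1 below in all of them (3.65 against 14.0) and Pcsk2 overlapped. All 5 measured indirect-pathway genes were above in all striatum-like libraries.

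KO/+ mice were compared with +/+ mice to ask what loss of 1 functional Htt allele changes. In libraries labelled striatum, Drd1, Tac1, Pdyn and Chrm4 were higher in KO/+ than in +/+ and Isl1 did not pass the test. These are 4 of 5 genes, and 8.17% of 15808 entries were called, 4.4% higher and 3.78% lower. All 24 libraries of the KO line were striatum-like, so the class does not divide these groups. In bulk RNA, fewer cells of a type and less RNA per cell cannot be told apart.

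Drd1 was at 32.9, 38.5 and 45.2 scaled FPKM (lowest, median and highest of 6) in +/+ libraries and at 45.9, 52.6 and 62.1 in KO/+ libraries. The groups did not overlap, and the log2 fold change was 0.46 (SE 0.09, adjusted p = 0.012 from limma). Tac1 was at 53.4, 68.3 and 71.0 in +/+ and at 84.3, 93.1 and 105 in KO/+ libraries. The groups did not overlap either, with a log2 fold change of 0.50 (SE 0.08, adjusted p = 0.0036 from limma). Pdyn was at 25.1, 28.5 and 36.3 in +/+ and at 31.7, 40.6 and 48.7 in KO/+ libraries. Its groups overlapped, the log2 fold change was 0.42 (SE 0.12, adjusted p = 0.046 from limma), and the call was lost in 9 of the 12 fits that left out 1 library, with adjusted p up to 0.11.

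Chrm4 was at 14.7, 17.2 and 20.1 scaled FPKM in +/+ and at 17.7, 24.1 and 28.2 in KO/+ libraries. Only the lowest KO/+ library lay within the range of +/+, and the log2 fold change was 0.44 (SE 0.09, adjusted p = 0.013 from limma). Isl1 was at 3.37, 5.01 and 5.67 in +/+ and at 3.52, 4.25 and 5.19 in KO/+ libraries, a log2 fold change of -0.10 (SE 0.13, adjusted p = 0.70 from limma). The +/+ range of Isl1 held all 6 KO/+ libraries. The calls of Drd1, Tac1 and Chrm4 held in all 12 fits that left out 1 library.

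**Figure D2:**
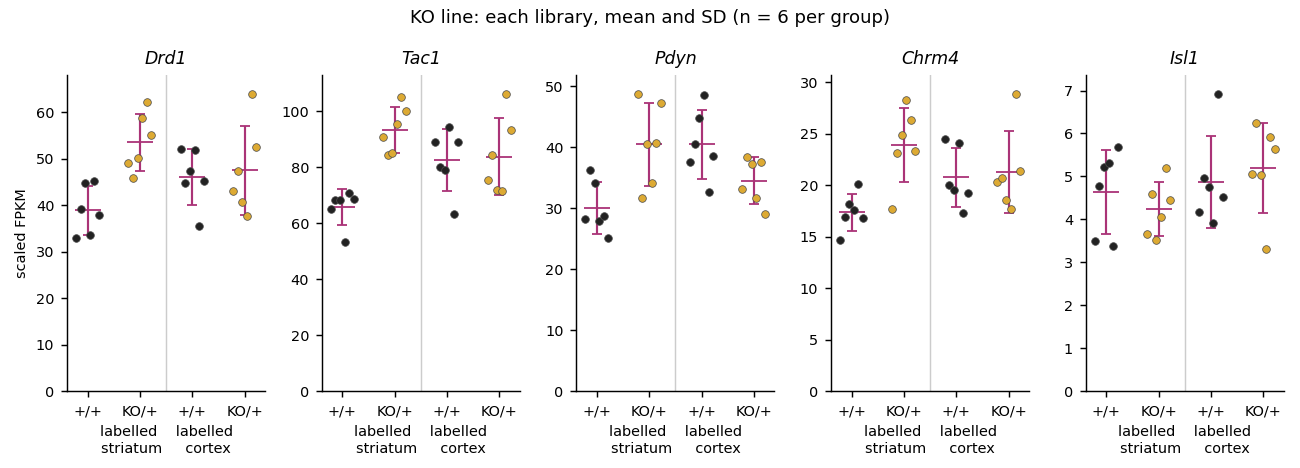
Scaled FPKM of each gene in the KO line, with 6 libraries per group as points and the mean and SD as bars, for +/+ (black) and KO/+ (yellow) in labelled striatum and labelled cortex. In labelled striatum the Drd1 and Tac1 points of KO/+ lie above all those of +/+, and in labelled cortex the groups overlap for every gene.

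These changes were shared with other projection neuron genes. Of 7 genes of all striatal projection neurons, 7 were higher, with a median log2 fold change of 0.43 against 0.02 over all entries, for example Ppp1r1b, which encodes the cyclic AMP target DARPP-32 (0.52, SE 0.08, adjusted p = 0.0040 from limma). Of 5 tested indirect-pathway genes, 4 were higher, with Drd2 at 0.51 (SE 0.08) and Penk, the enkephalin precursor, at 0.54 (SE 0.08). Of 12 genes of D1 receptor signalling, 9 were higher and none lower (median 0.39), whereas quantile normalization gave 8 higher and 1 lower. Gnb1, Prkaca and Prkar2b, which many cells use, did not pass. Of 6 further direct-pathway genes, Slc35d3 was higher (0.35, SE 0.07) and 5 did not pass (median 0.31). Of 12 receptors, ligands and enzymes, 3 were higher (Tacr1 at 0.34, Pcsk2 at 0.27 and Penk) and Tac2, the neurokinin B precursor, was lower (-1.72, SE 0.26). The cholinergic genes Chat and Slc5a7 were at 0.04 and 0.03, and none of the 5 cholinergic genes passed.

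As a ratio to Drd2 in the same library, no direct-pathway gene differed past the threshold. The mean log2 ratio of Drd1 to Drd2 was -0.15 in KO/+ and -0.10 in +/+ libraries labelled striatum (difference -0.05, exact permutation test over 924 labelings, two-sided p = 0.25, adjusted p = 0.78 over 10 comparisons). That of Isl1 was -3.66 and -3.05 (difference -0.61, exact permutation test, p = 0.0065, adjusted p = 0.065). The other 8 comparisons had adjusted p of 0.78 to 0.98 by the same exact permutation test.

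Genes of other regions moved with the labelled genotype in the same libraries. All 5 tested hypothalamic neuropeptide genes were lower in KO/+. Pmch, the melanin-concentrating hormone precursor, was at 4.76 to 58.5 scaled FPKM in the 6 +/+ and at 0 to 0.278 in the 6 KO/+ libraries. The summed level of the 7 hypothalamic genes ranged from 9.41 to 143 scaled FPKM in +/+ and from 1.80 to 4.96 in KO/+ libraries. Mag and Mog, myelin glycoprotein genes of oligodendrocytes, were lower too (-0.43, SE 0.06, and -0.42, SE 0.11). Of 4 tested genes of the septum and pallidum, 1 was lower (Zic1 at -0.91, SE 0.12), as was 1 of 3 of astrocytes (Aqp4 at -0.58, SE 0.11). No gene of microglia (3 tested), choroid plexus (3), ependymal cells (2), endothelium (2), striosomes (3) or ventral striatum (3) passed. Of 5 tested genes of the cortical excitatory list, 1 was higher. The list had a median log2 fold change of 0.70, above that of the projection neuron genes. Tbr1 at 0.77 (SE 0.34, adjusted p = 0.20) and Neurod6 at 0.70 (SE 0.31, adjusted p = 0.21) did not pass by limma. The summed level of the list ranged from 11.1 to 29.4 scaled FPKM in +/+ and from 8.48 to 45.6 in KO/+ libraries. The part of these cells in the difference of the direct-pathway genes was not tested.

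The difference was smaller without the +/+ libraries that had the most Pmch. Without male 1, female 1 and female 3, at 34.9 to 58.5 scaled FPKM of Pmch and chosen after the values were seen, 49 of 15784 entries were called and only Tac1 of the 5 genes (0.40, SE 0.05, adjusted p = 0.035 from limma). These 3 libraries were also the lowest of the 6 +/+ libraries in Drd1 (32.9, 33.6 and 37.9 scaled FPKM) and in Pdyn. Leaving them out raises the +/+ mean of both genes, so the choice of libraries itself lowers the difference. That fit held 3 +/+ and 6 KO/+ libraries. Drd1 was then at 0.27 (SE 0.07, adjusted p = 0.14), Pdyn at 0.29 (SE 0.15, adjusted p = 0.45), Chrm4 at 0.32 (SE 0.11, adjusted p = 0.26) and Isl1 at -0.05 (SE 0.16, adjusted p = 0.93), all from limma. None of the 7 projection neuron genes, the 12 D1 signalling genes, the 5 indirect-pathway genes and the 6 further direct-pathway genes was called in that fit, with medians of 0.33, 0.25, 0.27 and 0.20. On FPKM as deposited, 348 entries were called, 27 higher and 321 lower against 695 and 597 after scaling. Tac1 alone of the 5 genes was called (0.41, SE 0.09, adjusted p = 0.031 from limma), with Drd1 at 0.36, Pdyn at 0.32, Chrm4 at 0.35 and Isl1 at -0.19. The lists lost their calls on that scale too, since 0 of 7 projection neuron genes (median 0.34), 1 of 12 D1 signalling genes (0.29), 0 of 5 indirect-pathway genes (0.32) and 0 of 6 further direct-pathway genes (0.22) were called.

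**Figure D3:**
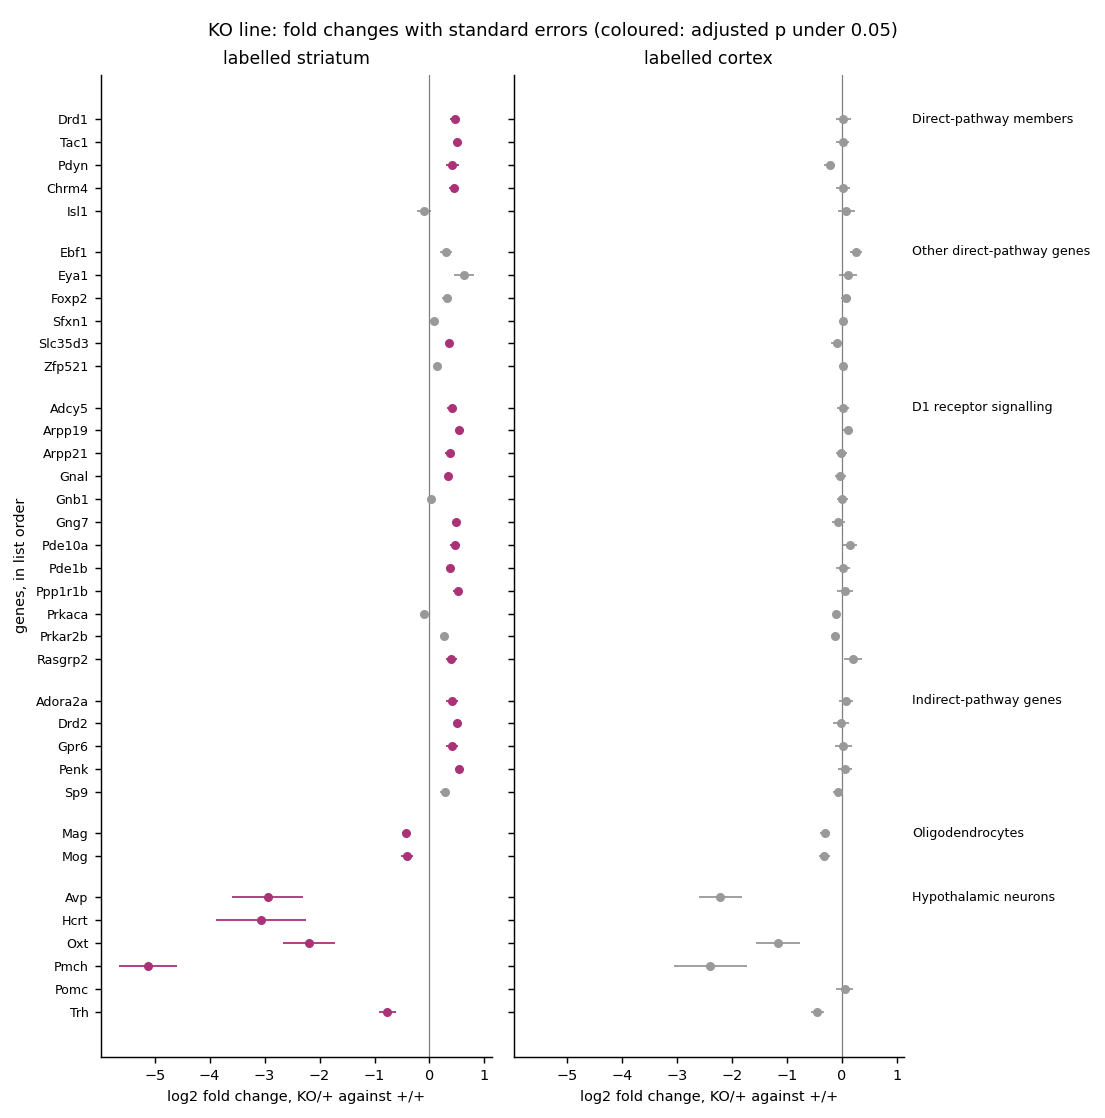
Log2 fold changes with standard errors of the 5 genes and of genes of 5 further lists in KO/+ against +/+ libraries, in labelled striatum (left) and labelled cortex (right), coloured where the adjusted p is under 0.05. In labelled striatum 4 of 5 direct-pathway genes are coloured on the right of 0 and the oligodendrocyte and hypothalamic genes on its left, and in labelled cortex no gene shown is coloured.

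In KO-line libraries labelled cortex, which were striatum-like too, none of the 5 genes passed, and 0.114% of 15820 entries did, 18 in all, with 0.00632% higher. Drd1 was at 35.6, 46.2 and 52.1 scaled FPKM in +/+ and at 37.6, 45.2 and 63.9 in KO/+ libraries (log2 fold change 0.03, SE 0.13, adjusted p = 0.94 from limma). Tac1 was at 63.4, 84.4 and 94.4 and at 71.4, 79.9 and 106 (0.02). Chrm4 was at 17.3, 19.8 and 24.5 and at 17.7, 20.5 and 28.8 (0.02). For each of these, the ranges of the groups overlapped and the highest library was a KO/+ one.

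Pdyn was at 32.6, 39.6 and 48.5 in +/+ and at 29.1, 35.2 and 38.4 in KO/+ libraries labelled cortex, a log2 fold change of -0.22 (adjusted p = 0.33 from limma, unadjusted p = 0.041). Isl1 was at 3.92, 4.65 and 6.91 and at 3.31, 5.35 and 6.24 (0.08, adjusted p = 0.85 from limma). Of the further lists, Tac2 and Dlk1 (a ventral striatal marker) were lower and no other gene passed, with medians of 0.05 for projection neuron genes, 0.03 for indirect-pathway genes and 0.01 for D1 signalling genes. The hypothalamic sum ranged from 4.40 to 32.2 in +/+ and from 2.41 to 3.65 in KO/+ libraries here. Whether the KO/+ difference differed between the labelled tissues was tested with an interaction term over the 24 libraries. It was 0.43 for Drd1 (SE 0.16, adjusted p = 0.34), 0.49 for Tac1 (SE 0.14, adjusted p = 0.27), 0.64 for Pdyn (SE 0.15, adjusted p = 0.23), 0.42 for Chrm4 (SE 0.16, adjusted p = 0.34) and -0.19 for Isl1 (SE 0.21, adjusted p = 0.76), all from limma. None of 15917 entries passed, and 1841 had an unadjusted p under 0.05.

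The Δ12 groups ask whether deletion of the end of exon 12 changes expression. For Δ12/+ against +/+, all 24 libraries were cortex-like in both labelled tissues. None of the 5 genes passed in libraries labelled striatum, where 0.00663% of 15077 entries did, or in those labelled cortex, where 0.053% of 15095 did, 0.00662% higher. Drd1 was at 6.60, 7.83 and 10.8 scaled FPKM in +/+ and at 4.94, 8.08 and 18.9 in Δ12/+ libraries labelled striatum (0.07, adjusted p = 1.00 from limma). The largest differences were those of Isl1 (0.61) and Pdyn (0.41) in libraries labelled striatum and of Pdyn (-0.48) in those labelled cortex, with adjusted p of 0.61 or more from limma.

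For Δ12/Δ12 against +/+, the labelled genotype and the class cannot be told apart in libraries labelled female, since Δ12/Δ12 females were striatum-like and all +/+ libraries cortex-like. In libraries labelled striatum, Drd1 was at 6.49, 7.10 and 8.88 scaled FPKM in the 3 Δ12/Δ12 males and at 37.7, 43.5 and 52.5 in the 3 females. Tac1 was at 20.8, 23.3 and 27.1 and at 61.5, 83.9 and 84.9. Pdyn, Chrm4 and Isl1 were split in the same way, with male medians of 7.55, 3.93 and 0.707 and female medians of 38.5, 18.3 and 4.95. The fit of Δ12/Δ12 against +/+ in libraries labelled striatum called 28.7% of 15467 entries, 14.9% higher and 13.8% lower, and 4 of the 5 genes as higher: Drd1 (1.10), Pdyn (1.29), Chrm4 (1.19) and Isl1 (1.12), with Tac1 at 0.75 (adjusted p = 0.066 from limma). On FPKM as deposited it called 1312 entries higher and 3079 lower, against 2307 and 2136 after scaling, and 3 of the 5 genes. The calls also depended on the term for labelled sex, without which 9 entries and none of the 5 genes were called. With the class as a covariate, none of the 5 genes and 19 entries were called, and Drd1 was at -0.01 and Tac1 at -0.12. In that fit the class marks only the Δ12/Δ12 libraries labelled female. Its fold changes are therefore those between the libraries labelled male alone, 3 against 3. The calls of Drd1, Pdyn, Chrm4 and Isl1 were also lost in each of the 6 fits that left out 1 female library.

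In libraries labelled cortex, none of the 5 genes passed for Δ12/Δ12 against +/+, and 0.79% of 15696 entries did. Chrm4 (1.34, adjusted p = 0.075 from limma) and Isl1 (1.39, adjusted p = 0.084 from limma) came closest. Chrm4 was called when cortex Δ12-line +/+ male 2 was left out (adjusted p = 0.039 from limma). With the class as a covariate, they were at 0.0020 and 0.34, and Drd1, Tac1 and Pdyn were at -0.43, -0.44 and -0.84, with adjusted p of 0.60 or more from limma. As in labelled striatum, these fold changes are those between the libraries labelled male alone.

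Between labelled striatum and labelled cortex over all 60 libraries, limma called 0 of 16076 entries, 393 had an unadjusted p under 0.05, and none of the 5 genes was among these. Their log2 fold changes were 0.08 for Drd1, 0.04 for Tac1, 0.01 for Pdyn, 0.02 for Chrm4 and -0.00046 for Isl1.

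Among the striatum-like libraries, with the genotype groups pooled, Drd1, Tac1, Chrm4 and Drd2 went up and down together, and Pdyn followed loosely. Relations were computed separately for the 15 libraries of each labelled tissue, 45 relations each, with permutation tests of 100000 resamples and Benjamini-Hochberg adjustment. In libraries labelled striatum, Drd1 with Tac1 had r = 0.92 and rho = 0.94 (permutation test, adjusted p = 0.00018 and 0.000129), and Drd1 with Chrm4 had r = 0.89 and rho = 0.91 (same permutation p). In libraries labelled cortex, Drd1 with Tac1 had r = 0.95 and rho = 0.92 (permutation test, adjusted p = 0.000112 and 0.000225), and Drd1 with Chrm4 r = 0.95 and rho = 0.93 (same permutation p). Without the 2 libraries farthest from the median of the second gene of the pair (Tac1 or Chrm4), these r were 0.90, 0.83, 0.89 and 0.89. Of the 10 pairs of the 5 genes, 5 passed by Pearson's r among libraries labelled striatum (4 by Spearman's rho) and 3 by either among those labelled cortex.

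Drd1 also followed Drd2, the gene of the other pathway, with r = 0.98 and rho = 0.98 in libraries labelled striatum and r = 0.93 and rho = 0.89 in those labelled cortex (permutation test, adjusted p of 0.00045 or less). Drd1 with Pdyn had r = 0.60 and rho = 0.57 in libraries labelled striatum (permutation test, adjusted p = 0.042 and 0.061) and r = 0.52 and rho = 0.50 in those labelled cortex (permutation test, adjusted p = 0.13 and 0.16). Over the 15 libraries, Isl1 had no relation past the threshold with any of the other 4 genes in either set, with r from -0.26 to 0.28. Counting error was largest for Isl1, with a median interval half-width of 27.2% in striatum-like libraries, and it limits any r with this gene. With Htt, the r of the 5 genes ranged from -0.32 to -0.10 in libraries labelled striatum and from -0.49 to 0.06 in those labelled cortex, none past the threshold.

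**Figure D4:**
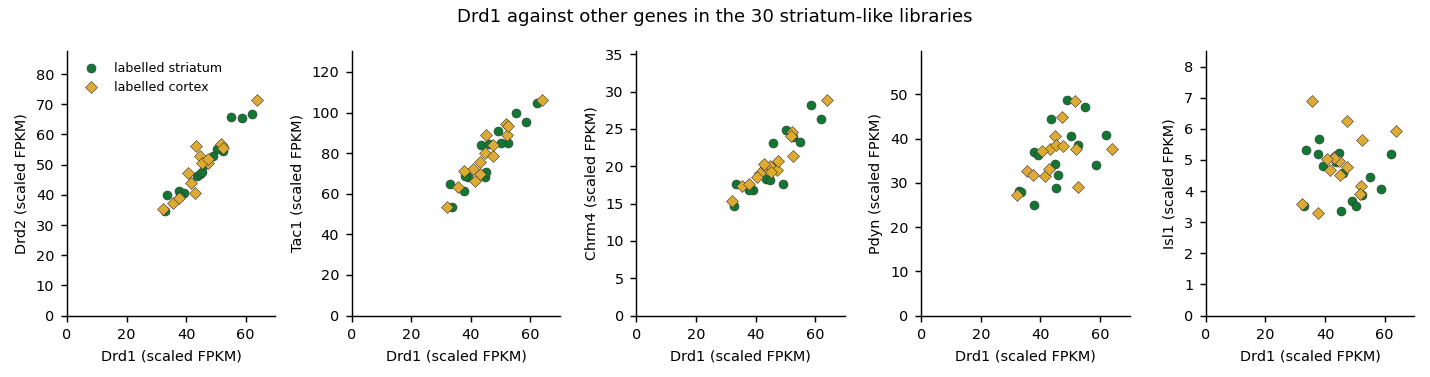
Scaled FPKM of Drd1 (horizontal) against Drd2, Tac1, Chrm4, Pdyn and Isl1 (vertical) in the 30 striatum-like libraries, with circles for labelled striatum and diamonds for labelled cortex. The points lie close to a line for Drd2, Tac1 and Chrm4, spread widely for Pdyn and show no trend for Isl1.

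The relations were also computed within genotype groups. Within the KO-line groups of 6, Drd1 with Drd2 had r of 0.92, 0.95, 0.96 and 0.95 in +/+ and KO/+ libraries labelled striatum and +/+ and KO/+ libraries labelled cortex (exact permutation tests over 720 pairings, adjusted p = 0.056, 0.046, 0.071 and 0.042 over 60 relations; rho 0.94, 0.94, 0.71 and 0.94). Drd1 with Tac1 had r of 0.68, 0.90, 0.91 and 0.99 in the same order (exact permutation tests, adjusted p = 0.16, 0.079, 0.10 and 0.028). Drd1 with Chrm4 had r of 0.78, 0.61, 0.90 and 0.96 (exact permutation tests, adjusted p = 0.16, 0.35, 0.053 and 0.028). Chrm4 with Drd2 had r of 0.94, 0.60, 0.84 and 0.90. In libraries labelled striatum, Tac1 with Chrm4 was weak, with r of 0.18, 0.30, 0.80 and 0.93 over the 4 groups. Tac1 with Drd2 had r of 0.35, 0.90, 0.93 and 0.94. Drd1 with Pdyn had r of 0.41, 0.11, 0.73 and 0.19 (exact permutation tests, adjusted p from 0.23 to 0.90). Isl1 had no common sign, with r of -0.98 with Tac1 in +/+ libraries labelled cortex (rho -0.89, exact permutation test, adjusted p = 0.042 and 0.14), where female 2 stood highest in Isl1, and of 0.67 in KO/+ libraries labelled cortex (exact permutation test, adjusted p = 0.25). Of the 60 relations, 9 passed by Pearson's r. None passed by Spearman's rho, for which the smallest p that 6 libraries allow is 0.0028, and the 3 relations with a rho of 1 had an adjusted p of 0.056 (exact permutation tests).

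A hypothalamic gene ran against Drd1, Tac1, Pdyn and Chrm4, but not Isl1, in libraries labelled striatum. Drd1 had r = -0.85 and rho = -0.92 with Hcrt, the orexin precursor (permutation test, adjusted p = 0.00019 and 0.00013). Tac1, Pdyn and Chrm4 had r of -0.79, -0.69 and -0.74 with Hcrt (permutation test, adjusted p of 0.013 or less), and Isl1 had r = 0.34 (permutation test, adjusted p = 0.36). Hcrt was at 0 in all 6 KO/+ libraries of this set, where Drd1, Tac1, Pdyn and Chrm4 were higher than in +/+. The relations with Hcrt thus include the difference between the labelled genotypes, and they were not computed within groups. In libraries labelled cortex the relation of Drd1 had r = -0.38 and rho = -0.12 and did not pass (permutation test, adjusted p = 0.32 and 0.76). Slc17a7 had no relation past the threshold with any of the 5 genes in either set. The part of these cells in the relations of the 5 genes was not tested.

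The genes with the most similar pattern over the 30 striatum-like libraries were sought among 13969 entries with a mean of at least 1 scaled FPKM there, by Pearson's r as a description. For Drd1 they were Dgkb, a diacylglycerol kinase (0.96), Drd2 (0.95) and Ppp3ca, a calcineurin subunit (0.95). For Tac1 they were Gcnt2 (0.91), Arpp19 (0.91) and Rasd2, a striatal small G protein also called Rhes (0.91). For Chrm4 they were Meis2, a striatal transcription factor (0.94), Smpd3 (0.93) and Adora2a, the adenosine receptor of the indirect pathway (0.93). The likest genes of Pdyn were looser (Ski 0.81, 1700037H04Rik 0.80, Dclk3 0.79), and those of Isl1 looser still (Tarbp2 0.62, Gm6517 0.60, Zfp865 0.58). An r above 0.8 was reached by 262 entries for Drd1, 152 for Tac1, 201 for Chrm4, 2 for Pdyn and 0 for Isl1. The counting error of Isl1 limits its r here too. Arpp19 followed Tac1 within striatum-like libraries although its level was lower in them than in cortex-like ones.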

How the data were processed

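RNA-Seq libraries of ribosomal RNA-depleted total RNA, made with a directional kit, were sequenced on a NovaSeq. Each library's table, as the authors deposited it, gives FPKM, its confidence bounds and a status for 47597 entries. The submitters' processing notes name bcl2fastq 2.20, Trimmomatic 0.30, TopHat2 2.0.14, SAMtools 1.3, HTSeq 0.6.1p1 and GRCm38.p4, and the annotation release and the strand setting are not given in the sources used here. 23 entries whose status was not OK throughout were left out (Mbp among them). FPKM were scaled by median-of-ratios factors (0.761 to 1.38). Depth was estimated from the deposited bounds of 3661 single-transcript genes. The bounds cover counting error only.

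Groups are those of the labels, and libraries are described by class, cortex-like above 100 FPKM of Slc17a7 as deposited. log2(scaled FPKM + 0.5) was fitted with limma 3.58.1 (R 4.3.3, trend) per comparison over entries with a mean of at least 0.5, with labelled sex as covariate and Benjamini-Hochberg adjustment over all entries. A call is an adjusted p under 0.05. The p-values measure the spread between labelled mice. In the comparison of labelled tissues and in the interaction, each labelled mouse gave a library of each tissue, and these were fitted as independent. Permutation tests, two-sided, used numpy 2.4.6, with scipy 1.17.1 for ranks (Python 3.11.15). Scripts were tested on simulated data.

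The 5 genes and the gene lists (further direct-pathway genes, receptors, ligands and enzymes, D1 signalling, indirect pathway, all projection neurons, and markers of other cells and regions) were chosen with earlier results of these data known. Named genes are the 5 genes, list members, the 3 entries most correlated with each, Slc17a7 and Htt, plus Xist and Ddx3y for the check of labels. The alternatives were FPKM as deposited, quantile normalization, another pseudocount, no filter, no sex term, a replicate block, the class as covariate, other class thresholds and 1 library left out. Leaving out the 3 libraries highest in Pmch, the ratio to Drd2, the interaction and the relations within groups were added after seeing the data. Some results on markers of other cells are not reported here.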

Additional observations from a re-analysis of the deposited data

Results flagged for a closer look

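In 8 of 50 combinations of gene and labelled group, 1 library stood apart from the other 5 by Dixon's test, which chance does in about 1 of 20. They were Tac1 in striatum KO-line +/+ female 1 (53.4 scaled FPKM, low), Pdyn in cortex Δ12-line +/+ male 1 (22.6) and in striatum Δ12/+ male 3 (20.3), Chrm4 in striatum Δ12-line +/+ female 1 (4.50), in striatum Δ12/+ male 3 (8.58) and in cortex KO/+ female 2 (28.8), and Isl1 in cortex Δ12-line +/+ male 1 (3.24) and in cortex KO-line +/+ female 2 (6.91).

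In 5 cases, every library of one labelled sex differed from the +/+ mean of its own sex in the opposite direction to every library of the other, and these differences were not tested. For Δ12/+ against +/+, the mean log2 differences in males and females were 0.62 and -0.48 for Drd1 in labelled striatum, and -0.10 and 0.39 for Chrm4 in labelled cortex. For Δ12/Δ12 against +/+ in labelled cortex, they were -0.43 and 2.15 for Drd1, -0.44 and 1.23 for Tac1 and -0.84 and 1.90 for Pdyn, where the labelled females were striatum-like and the males cortex-like.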

How the results depend on the processing

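Where a value changed with the processing, the cause was not tested. On FPKM as deposited, 1 of the 5 genes was called for KO/+ in labelled striatum, with 348 entries (1292 after scaling), and 147 entries in labelled cortex (18), where Drd1, Tac1, Chrm4 and Isl1 turned to -0.14, -0.15, -0.14 and -0.067. For Δ12/+ and Δ12/Δ12 in labelled cortex, 5 and 75 entries were called, Tac1 for Δ12/+ in labelled striatum was at -0.0022, Isl1 between labelled tissues at 0.017, and Pdyn with Isl1 had r = 0.13 in labelled striatum. 6 of 10 relations passed in labelled cortex, and 3 genes did not overlap between classes. With quantile normalization, Δ12/+ in labelled cortex had 57 calls with Tac1 at 0.00054, KO/+ in labelled striatum had 521 higher and 678 lower calls with 3 of the 5 genes, Δ12/Δ12 there had 5 of the 5 genes, and 3 relations passed in labelled striatum. With a pseudocount of 0.1, Isl1 between labelled tissues was at 0.060.

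Without a filter, KO/+ in labelled striatum kept 3 of the 5 genes, and Δ12/Δ12 had 1412 calls and 0 of the 5 genes in labelled striatum and 26 calls in labelled cortex. Without labelled sex, Δ12/+ in labelled striatum had 2 calls, KO/+ in labelled cortex 38, Δ12/Δ12 7 in labelled cortex, and 9 with 0 of the 5 genes in labelled striatum. With the class as covariate, Δ12/Δ12 had 19 calls and 0 of the 5 genes in labelled striatum (Drd1 -0.012, Tac1 -0.12) and 10 in labelled cortex (Drd1 -0.43, Tac1 -0.44, Pdyn -0.84). The fold changes of these fits are those between the libraries labelled male alone. Without the 3 libraries highest in Pmch, 1 of the 5 genes and 49 entries were called for KO/+. With Slc17a7 thresholds of 50 and 150 FPKM, 0 and 3 genes did not overlap.

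Replicate numbers did not pair the libraries (mean r of deviations -0.091 to 0.0073 over 7 comparisons). With a replicate block, calls were 697 for KO/+ (3 of the 5 genes, Pdyn lost at adjusted p = 0.13 from limma), 0 for Δ12/+ and 5 for Δ12/Δ12 (0 of the 5 genes) in labelled striatum, and 2, 1 and 6 in labelled cortex.

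With 1 library left out, calls ranged in labelled striatum between 765 and 1444 for KO/+, between 1 and 2 for Δ12/+ and between 5 and 6351 for Δ12/Δ12 (0 to 5 of the 5 genes), and in labelled cortex, in the same order, from 5 to 28, 4 to 17 and 12 to 3994 (0 to 1 of the 5 genes). Drd1, Tac1 and Chrm4 ranged from -0.13 to 0.21, -0.050 to 0.12 and -0.13 to 0.22 for Δ12/+ in labelled striatum, and from -0.065 to 0.10, -0.072 to 0.076 and -0.073 to 0.081 for KO/+ in labelled cortex. Tac1 and Chrm4 ranged from -0.21 to 0.0059 and -0.078 to 0.25 for Δ12/+ in labelled cortex. Depth limits Isl1 most.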
